A study of Homo sapiens with 30 samples.

Results

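The genes that recurrent translocations switch on in multiple myeloma, with the D cyclins and their kinases, were followed through loss and return of FOXM1 in a pair of human myeloma cell lines, OPM2 and Delta47. The set was chosen by name and holds 9 genes: FGFR3, NSD2, MAF, MYC, CCND1, CCND2, CCND3, CDK4 and CDK6. They are 9 of the 18159 genes that the tables of both lines hold together. All 9 are in the OPM2 table, and 8 are in the Delta47 table, where MAF was not analysed. Of these, 8 passed the filter on low values in OPM2 and 6 in Delta47. CCND1 fell below it in each line and FGFR3 fell below it in Delta47.

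Myeloma is a cancer of plasma cells, and in many cases a translocation places an oncogene next to an immunoglobulin enhancer. The genes reached in this way include the receptor gene FGFR3 and its neighbour NSD2, the transcription factor genes MAF and MYC, and the cyclin genes CCND1 and CCND3. D cyclins bind CDK4 or CDK6 and start the phosphorylation of the retinoblastoma protein, which releases E2F factors and lets cells enter S phase. OPM2 is known as a line in which the immunoglobulin heavy chain locus is joined to the region of FGFR3 and NSD2. FOXM1 is a forkhead transcription factor of proliferating cells that acts mainly on genes of late cell cycle phases.

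Unedited cells (WT) and 2 knockout clones (KO1, KO2) were sequenced in each line. The clones came from Cas9 protein loaded with 1 of 3 guides against exon 2 of FOXM1 and were grown out by limiting dilution. In OPM2, KO1 cells were also given an empty vector (KO1EV) or a lentiviral vector for the FOXM1c isoform (KO1R), and in Delta47 KO2 cells received the FOXM1c vector (KO2R). Cells given the FOXM1c vector were sorted for GFP. The empty-vector group of Delta47 was not analysed here, so KO2R was set against untransduced KO2, and effects of FOXM1c and of transduction and sorting cannot be told apart. Each group had 3 libraries. A knockout group holds 1 clone, and effects of FOXM1 loss and traits of that clone cannot be told apart either. Nothing in the labels says that the libraries of a group came from separate cultures, and p-values therefore measure a spread between libraries that may be technical.

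OPM2 values were FPKM with column totals of 510776 to 566016, and those of Delta47 were the authors' expression values, with totals of 534185 to 633778. Neither total is a read count, and the depth is unknown. FOXM1 mRNA was 175.9 ± 0.804 FPKM in OPM2 WT (SD, n = 3), 92.06 ± 1.08 in KO1, 62.13 ± 6.69 in KO2, 106.7 ± 1.85 in KO1EV and 277.5 ± 14.4 in KO1R. In Delta47 WT averaged 88.92 ± 1.88, KO1 47.95 ± 1.85, KO2 46.19 ± 0.883 and KO2R 99.37 ± 4.37. An edited gene can still be transcribed, so these levels do not measure the protein. OPM2 KO2 replicate 3 and KO1EV replicate 3 stood apart, with an SD of 0.533 and 0.271 (log2) across genes from their group means. In the other KO2 libraries this SD, which holds the pull of replicate 3 on that mean, was 0.277 and 0.282, and over all remaining OPM2 libraries it lay between 0.1 and 0.158. The label of each line as plasma cell myeloma was checked on markers: of 11 plasma cell genes with values, 9 averaged at least 1 in each line, led by JCHAIN. B, T and NK cell, myeloid, epithelial, stromal and endothelial markers were low in OPM2 (summed level per list 0.46 to 20.96 FPKM). In Delta47 CD4 averaged 167.2 and CD79B 50.45 over all libraries, while CD3E, which defines T cells, was at 0 to 0.22 and CD14, which defines monocytes, at 0 to 0.04. MS4A1, which defines B cells, was at 0 to 0.02 FPKM in OPM2 and was not analysed in Delta47. Some markers moved with the groups. In OPM2 CD7, a T and NK cell marker, averaged 2.933 FPKM in WT, 19.15 in KO1 and 2.787 in KO1EV, and CD79B rose in KO1 (1.45, adjusted p = 7.22e-06). In Delta47 the summed epithelial list ran from 5.58 to 13.05 and the stromal and endothelial list from 1.73 to 16.29. There PECAM1, an endothelial marker that plasma cells can also carry, averaged 1.19 for WT, 3.19 for KO1, 14.47 for KO2 and 13.72 for KO2R. EPCAM rose in KO1 (1.08, adjusted p = 8.93e-08), KRT18 rose in KO2 (0.78, adjusted p = 1.93e-06) and fell in KO1 (−0.50, adjusted p = 0.000164), and the plasma cell marker SLAMF7 fell from 96.61 to 33.71 and 14.29 in the clones (adjusted p = 4.09e-14 and 2.73e-17). Of 9 plasma cell markers tested in Delta47, 3 were higher and 6 lower in KO1 than in WT (28.9% and 23.7% of all genes). In KO2 4 were higher and 5 lower (28.4% and 15.2%). SDC1, another of them, rose in both clones (1.10 and 0.77, adjusted p = 2.69e-13 and 1.66e-11). The part of these markers in the results on the members was not tested.

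Members passing the test at an adjusted p below 0.05 (limma, Benjamini-Hochberg) were 0 to 5 of 8 in the OPM2 comparisons and 4 or 5 of 6 in those of Delta47, where up to 69% of all genes passed as well. Each count of members stands here beside the share of all genes tested that met the same rule. In OPM2 KO1 against WT, 3 of 8 members passed (21.2% of 10309 genes), 1 higher (14.5%) and 2 lower (6.72%). In KO2 against WT 1 passed (14.4%), with 1 higher (6.54%) and 0 lower (7.82%). Between the clones 5 differed (29.9%), 2 of them higher in KO2 (10.8%) and 3 lower (19.1%). KO1EV differed from KO1 in 1 member (4.95%), which was higher (1.78%), and in 0 that were lower (3.17%). KO1R differed from KO1EV in 0 members by limma (8.23%, of which 3.1% higher and 5.12% lower), and 1 had an unadjusted p below 0.05. KO1R differed from WT in 1 member (14.7%), with 0 higher (6.38%) and 1 lower (8.29%).

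In Delta47 KO1 against WT, 4 of 6 members passed (52.6% of 11001 genes), with 0 higher (28.9%) and 4 lower (23.7%). In KO2 against WT 5 passed (43.6%), with 0 higher (28.4%) and 5 lower (15.2%). KO2 was called different from KO1 in 4 members (42.1%), 3 higher (24.9%) and 1 lower (17.2%). KO2R was called different from KO2 in 4 (62%), 1 higher (25.2%) and 3 lower (36.8%). Against WT it was called different in 5 (69%), 1 higher (34.2%) and 4 lower (34.9%). Apart from the test, members whose 3 libraries in one group all lay above the 3 in the other were counted. In OPM2 there were 6 such members in KO1 against WT (60.7% of all genes), 3 in KO2 against WT (28.5%), 5 in KO2 against KO1 (34.7%), 5 in KO1EV against KO1 (29.1%), 3 in KO1R against KO1EV (42.8%) and 6 in KO1R against WT (50.9%). In Delta47 there were 5 in KO1 against WT (59.5%), 5 in KO2 against WT (53.1%), 4 in KO2 against KO1 (54.8%), 4 in KO2R against KO2 (65.6%) and 6 in KO2R against WT (69.3%). In Delta47 the median log2 fold change of the 6 members was −0.24 in KO1 and −0.15 in KO2 against WT, while that of all genes was 0.023 and 0.054. With the FOXM1c vector the median of the members was −0.311 in KO2R against KO2 and −0.402 in KO2R against WT. That of all genes was −0.0505 and −0.00365.

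**Figure D1:**
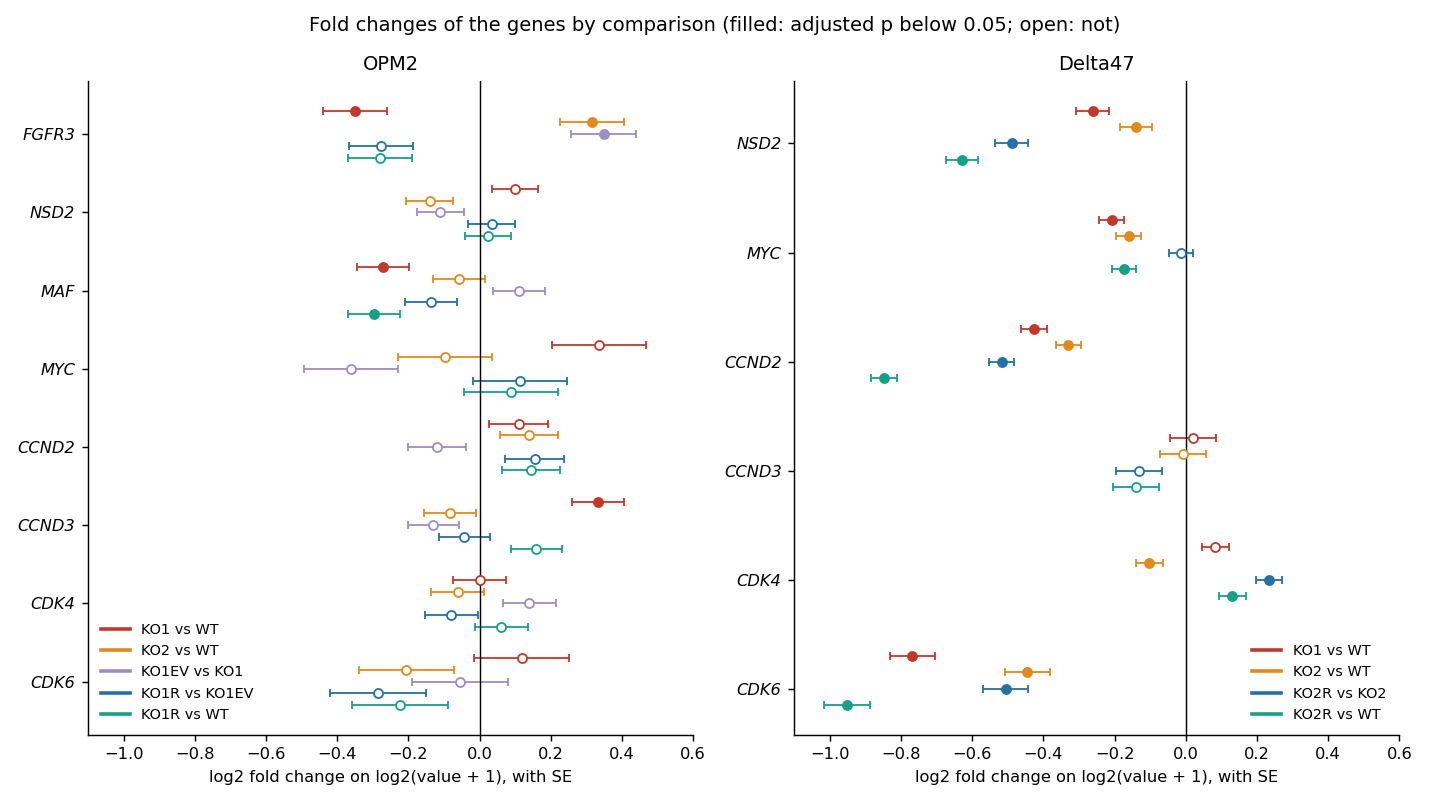
Log2 fold change with its SE (horizontal axis) of each tested gene (vertical axis) in OPM2 (left) and Delta47 (right); colours give the comparison and filled points passed an adjusted p below 0.05. FGFR3 lies on opposite sides of 0 in the OPM2 clones, and CDK6, CCND2 and NSD2 lie to the left in every Delta47 comparison drawn.

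The order of the levels was read in WT on the per-length scale. In OPM2 FGFR3 led with 627.8 ± 46 FPKM (SD, n = 3), and only 0.731% of genes were at or above it. MYC followed with 182.5 ± 8.55, then CDK4 with 102.8 ± 2.93 and NSD2 with 102 ± 0.306, and these last 2 overlapped. CCND2 had 82.91 ± 1.21, CDK6 26.98 ± 0.927, CCND3 14.85 ± 0.395 and MAF 9.357 ± 0.834, with no overlap between neighbours. In Delta47 the order was MYC (184 ± 3.7), CDK4 (146.1 ± 4.9), CCND2 (69.47 ± 1.33), CDK6 (42.94 ± 3.66), NSD2 (32.83 ± 1.7), CCND3 (22 ± 0.442) and FGFR3 (0.657 ± 0.0611), with no overlap between neighbours. The Delta47 table names no unit. Across 6652 genes the log2 ratio of Delta47 to OPM2 values changed by −0.0938 ± 0.0129 per doubling of transcript length, so the values behave nearly as if set per length. The tables were made separately and no test was run between the lines.

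Promoter sequence is shown for 3 genes that differ in what happened to them in Delta47: NSD2 and CDK6, which fell in both clones, and CDK4, which was higher with the FOXM1c vector than in KO2. Each is the 250 bases before a RefSeq transcription start in GRCh38.p14, written 5′ to 3′ on the gene's strand, at chr4:1871143-1871392 (+ strand) for NSD2, chr12:57752311-57752560 (− strand) for CDK4 and chr7:92836574-92836823 (− strand) for the first of 2 CDK6 entries. Capitals mark matches, on either strand, to TTTGAA (the cell cycle genes homology region core bound by complexes that FOXM1 joins), TGTTTAC (a forkhead motif), CACGTG (the E-box bound by MYC), TTTGGCGC and TTTCCCGC (E2F sites) or CCAAT.
NSD2: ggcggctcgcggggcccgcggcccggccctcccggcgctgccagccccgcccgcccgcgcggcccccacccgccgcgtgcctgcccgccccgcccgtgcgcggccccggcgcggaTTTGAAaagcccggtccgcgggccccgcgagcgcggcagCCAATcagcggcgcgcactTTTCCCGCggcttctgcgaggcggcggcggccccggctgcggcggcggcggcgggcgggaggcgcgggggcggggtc
CDK4: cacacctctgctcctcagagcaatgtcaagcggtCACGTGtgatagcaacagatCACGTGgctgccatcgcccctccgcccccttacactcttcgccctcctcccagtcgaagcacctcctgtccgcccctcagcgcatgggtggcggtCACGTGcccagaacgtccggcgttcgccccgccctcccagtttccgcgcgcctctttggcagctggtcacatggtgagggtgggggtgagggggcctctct
CDK6: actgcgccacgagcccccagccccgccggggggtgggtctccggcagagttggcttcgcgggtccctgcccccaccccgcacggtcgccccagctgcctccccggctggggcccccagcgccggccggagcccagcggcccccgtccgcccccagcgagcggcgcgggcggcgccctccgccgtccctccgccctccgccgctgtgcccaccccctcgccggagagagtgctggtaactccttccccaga
NSD2 holds 1 TTTGAA that begins 135 bases before the start, 1 CCAAT at 96 and 1 TTTCCCGC at 77. TTTGAA occurs in 13.3% of the 35116 promoters of the same length, CCAAT in 32% and TTTCCCGC in 1.39%. CDK4 holds 3 copies of CACGTG, which 6.34% of promoters contain at least once. Neither CDK6 entry, nor that of FGFR3, holds any of these letters, and the entries of MAF and CCND3 hold CCAAT only or none. TGTTTAC (2.98% of promoters) and TTTGGCGC (0.55%) have no match in any entry searched. CCND1 and CCND2 have no entry, and MYC is not shown. A match describes these letters, not binding.

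FGFR3 encodes a receptor tyrosine kinase for fibroblast growth factors. In OPM2 its mRNA was lower in 1 knockout clone and higher in the other. WT libraries had 581.13, 629.23 and 673.08 FPKM, KO1 had 437.28, 517.85 and 523.81, and KO2 had 839.67, 810.45 and 698.11. The 3 groups did not overlap, with KO1 lowest and KO2 highest. Against WT the log2 fold change, on log2(value + 1), which understates changes of low genes, was −0.35 ± 0.0906 for KO1 (SE; adjusted p = 0.0161) and 0.32 ± 0.0906 for KO2 (adjusted p = 0.0333). The clones differed by 0.67 ± 0.0906 (adjusted p = 0.000114), a call kept without any 1 library (adjusted p = 2.97e-06 to 0.000827). Here, as for every gene in bulk RNA, fewer cells that express it and less RNA per cell cannot be told apart.

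Single libraries decided each call of FGFR3 against WT. The KO1 call was lost without KO1 replicate 1, WT replicate 2 or WT replicate 3 (adjusted p = 0.0522 to 0.0695). The KO2 call was lost without KO2 replicate 1 or 2 or WT replicate 1 or 2 (0.0871 to 0.131), with quantile scaling (0.21, adjusted p = 0.185), with no filter on low values (adjusted p = 0.0516) and in a fit of these groups alone (adjusted p = 0.171), and it was kept without the 2 libraries that stand apart (0.40, adjusted p = 0.000429).

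With the empty vector FGFR3 lay at the WT level and with FOXM1c it lay near the KO1 level. KO1EV had 651.85, 638.7 and 588.22 FPKM and KO1R had 503.48, 499.49 and 546.61. KO1EV libraries were all above those of KO1 and of KO1R. KO1EV exceeded KO1 by 0.35 ± 0.0906 (adjusted p = 0.0445), a call lost without KO1 replicate 1, 2 or 3 or KO1EV replicate 1 or 2 (0.0679 to 0.165). It was also lost with quantile scaling (adjusted p = 0.143), no filter (0.0559) and a replicate block (0.0576). KO1R was lower than KO1EV by −0.28 ± 0.0906 (adjusted p = 0.0813), and without the 2 libraries that stand apart by −0.32 (adjusted p = 0.0043). KO1R against WT gave −0.28 (adjusted p = 0.055), with an adjusted p of 0.00262 without those 2 libraries. In Delta47 the receptor was nearly absent, at 0.59 to 0.71 in WT, 0.58 to 0.94 in KO1, 0.88 to 1.08 in KO2 and 0.62 to 0.73 in KO2R. These levels are below the filter and were not tested, although the KO2 libraries were all above those of WT and of KO2R.

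Of 30 tested genes of FGF receptor signalling, 5 were higher and 4 lower in OPM2 KO1 than in WT, and 1 was higher and 6 lower in KO2. These calls were 30% and 23.3% of the list, beside 21.2% and 14.4% of all genes. From KO1EV to KO1R 5 of the 30 rose and 3 fell (26.7%, beside 8.23% of all genes). DUSP4, a phosphatase that turns off ERK, fell in both clones (−0.70 ± 0.0653, adjusted p = 7.66e-06 in KO1 and −0.61 ± 0.0653, adjusted p = 3.36e-05 in KO2) and KO1R exceeded KO1EV (0.49, adjusted p = 0.000447). ETV4, a transcription factor induced by ERK signals, fell in KO2 from 2.923 to 0.86 FPKM (−1.07, adjusted p = 2.35e-05) and rose from KO1EV to KO1R from 3.66 to 9.447 (1.17, adjusted p = 1.97e-05). In Delta47, where FGFR3 is nearly absent, 3 of 23 were higher and 12 lower in KO1, 5 higher and 7 lower in KO2, and 1 higher and 15 lower in KO2R than in KO2. Such calls made up 65.2%, 52.2% and 69.6% of the list, beside 52.6%, 43.6% and 62% of all genes. SPRED2, an inhibitor of RAS to ERK signalling, fell in both Delta47 clones (−0.84 and −0.58, adjusted p = 1.08e-08 and 9.79e-07).

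**Figure D2:**
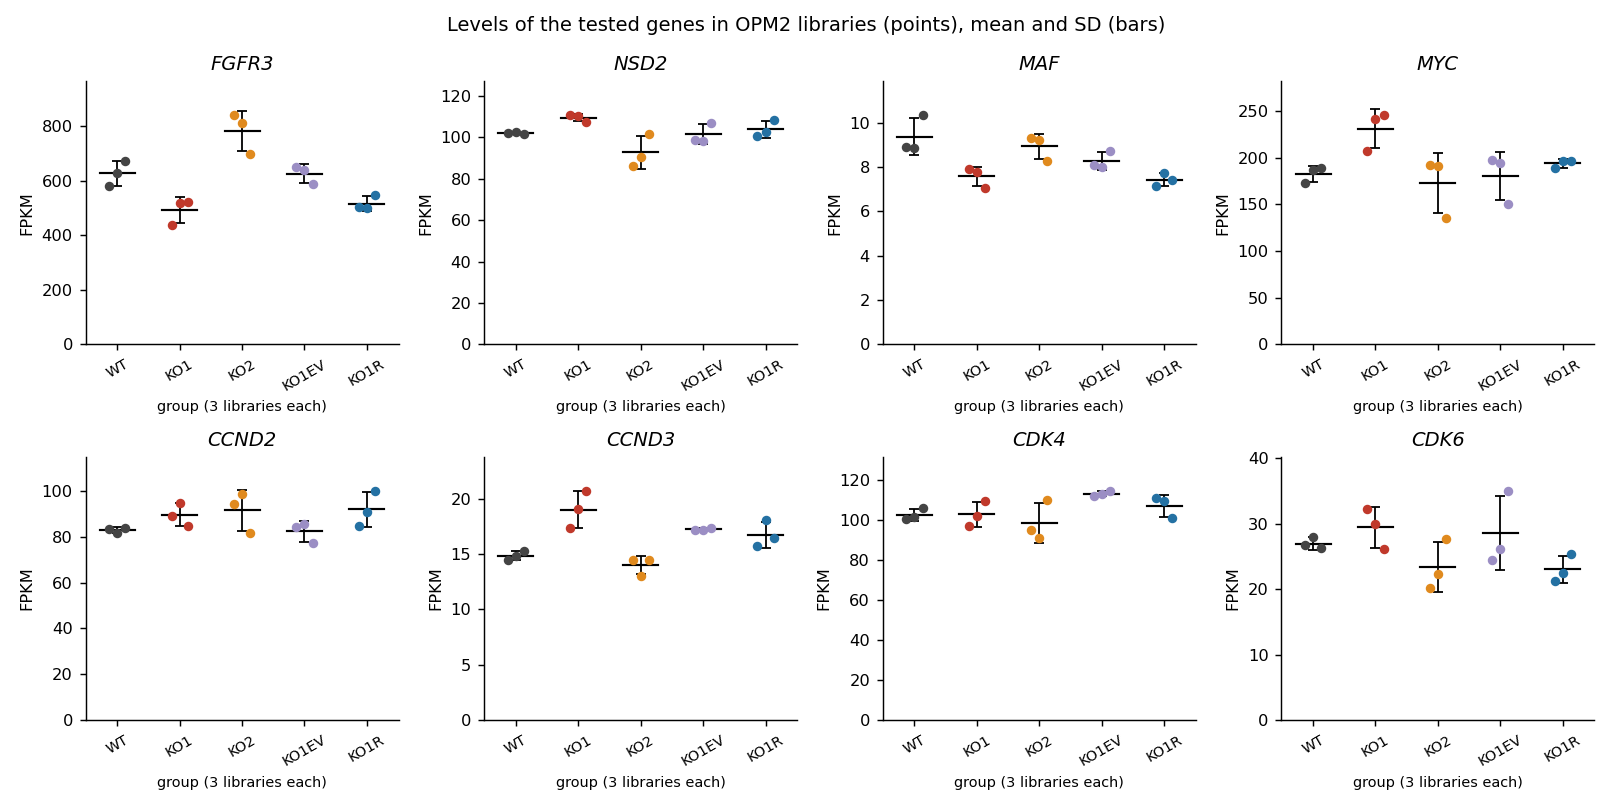
FPKM (vertical axes, from 0) of the 8 tested genes in each OPM2 library by group (horizontal axes); points are libraries, bars the mean and SD. FGFR3 is at 437.28 to 523.81 FPKM in KO1 and at 698.11 to 839.67 in KO2, on either side of WT.

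NSD2 encodes the methyltransferase that places the dimethyl mark on lysine 36 of histone H3. In OPM2 it differed between the clones but from WT in neither. Its values were 102.04, 102.31 and 101.7 FPKM in WT, 110.51, 110.38 and 107.4 in KO1 and 86.21, 90.27 and 101.49 in KO2. KO1 lay above WT and KO2 below it without overlap. KO1 differed from WT by 0.10 ± 0.0652 (adjusted p = 0.266) and KO2 by −0.14 ± 0.0652 (adjusted p = 0.18). KO2 was lower than KO1 by −0.24 (adjusted p = 0.0136), a call lost without KO2 replicate 1 or 2 (0.0698 and 0.0505) and with the trend on transcript length removed (−0.12, adjusted p = 0.0797) or these groups alone (adjusted p = 0.139). Without the 2 libraries that stand apart NSD2 passed in each clone, upward in KO1 (adjusted p = 0.0254) and downward in KO2 (−0.21, adjusted p = 0.000665). KO1EV (98.76, 98.36 and 107.06) and KO1R (100.68, 102.28 and 108.4) overlapped (0.034, adjusted p = 0.769).

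In Delta47 NSD2 fell in both clones and was lowest with FOXM1c. Its values were 34.69, 32.42 and 31.37 in WT, 26.78, 27.58 and 27.19 in KO1, 30.46, 29.35 and 29.25 in KO2 and 19.74, 21.66 and 21.2 in KO2R. No 2 groups overlapped. KO1 was lower than WT by −0.26 ± 0.0456 (adjusted p = 0.000163) and KO2 by −0.14 ± 0.0456 (adjusted p = 0.0209). The KO2 call was lost without KO2 replicate 2 or 3 or WT replicate 1 (0.0642 to 0.105). KO2R was lower than KO2 by −0.49 ± 0.0456 (adjusted p = 1.52e-07) and lower than WT by −0.63 (adjusted p = 4.79e-09). With the length trend removed the value against KO2 was −0.23 (adjusted p = 5.4e-05) and that for KO1 against WT −0.12 (adjusted p = 0.0119). The difference of KO2 from KO1 (0.12, adjusted p = 0.0405) was lost whichever of the 6 libraries was left out (0.0605 to 0.135) and turned to −0.036 (adjusted p = 0.457) with the length trend removed.

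The 4 neighbours of FGFR3 and NSD2 on chromosome 4 did not all go the way of NSD2 in Delta47. From KO2 to KO2R, LETM1 fell from 32.88 ± 0.265 to 21.2 ± 0.479 (−0.61, adjusted p = 1.92e-09) and TACC3 fell from 75.76 ± 1.78 to 55.67 ± 0.926 (−0.44, adjusted p = 1.89e-08). NELFA fell too (−0.28, adjusted p = 7.54e-05), whereas C4orf48 rose from 114.2 ± 3.65 to 141.8 ± 10.1 (0.31, adjusted p = 0.000183). C4orf48 was also higher than WT in KO1 and KO2 (0.33 and 0.24, adjusted p = 0.000128 and 0.00264), where NSD2 was lower. LETM1, TACC3 and NELFA were lower than WT in KO1 (−0.29, −0.11 and −0.17, adjusted p = 7.04e-06, 0.0124 and 0.00625). In KO2 they were not called against WT (adjusted p = 0.53, 0.978 and 0.0655). Of 16 genes that write, read or erase the lysine 36 mark or oppose it, 1 was higher and 1 lower in OPM2 KO1 than in WT and 0 higher and 1 lower in KO2. In both clones the list was called less often than all genes, of which 21.2% passed in KO1 and 14.4% in KO2. The pair in KO1 was EZH2, the lysine 27 methyltransferase (0.26, adjusted p = 0.0212), and NSD3, a paralog of NSD2 (−0.28, adjusted p = 0.00492). EZH2 went the other way in KO2 (−0.57, adjusted p = 0.000128), with 61.39 FPKM in WT, 73.83 in KO1 and 41.11 in KO2. In Delta47 3 of 16 were higher and 7 lower in KO1, 3 higher and 3 lower in KO2, and 2 higher and 12 lower in KO2R than in KO2. The shares called were 62.5%, 37.5% and 87.5%, beside 52.6%, 43.6% and 62% of all genes. ASH1L, another lysine 36 methyltransferase, fell in both clones (−0.93 and −0.67, adjusted p = 1.4e-08 and 7.25e-07), and KDM2A, a demethylase of that residue, fell from KO2 to KO2R (−0.76, adjusted p = 1.26e-09).

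MAF, a basic leucine zipper transcription factor, was low in OPM2 and lower than WT in KO1 and KO1R. Its values were 8.88, 8.87 and 10.32 FPKM in WT, 7.89, 7.76 and 7.07 in KO1, 9.29, 9.22 and 8.28 in KO2, 8.08, 7.98 and 8.71 in KO1EV and 7.14, 7.73 and 7.39 in KO1R. KO1 and KO1R lay below WT without overlap, whereas KO2 overlapped WT. KO1 was lower than WT by −0.27 ± 0.073 (adjusted p = 0.0195), and KO2 gave −0.059 ± 0.073 (adjusted p = 0.647). The KO1 call was lost without KO1 replicate 3 or WT replicate 3 (0.0851 and 0.0858). KO1R was lower than WT by −0.30 (adjusted p = 0.0153), a call lost without KO1R replicate 1 or WT replicate 3 (0.0712 and 0.0738) and with the length trend removed (−0.23, adjusted p = 0.0541), and KO1R against KO1EV gave −0.14 (adjusted p = 0.278). KO2 exceeded KO1 by 0.21 (adjusted p = 0.0429), a call lost without KO1 replicate 1, 2 or 3 or KO2 replicate 1 or 2 (0.0559 to 0.157), with no filter, a replicate block or these groups alone (0.0562, 0.0561 and 0.159).

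Genes associated with MAF in myeloma did not all follow it. Of 8 tested in OPM2, 4 were higher and 2 lower in KO1 than in WT, 1 higher and 1 lower in KO2, while from KO1EV to KO1R 0 rose and 4 fell. Calls thus took in 75%, 25% and 50% of these 8, beside 21.2%, 14.4% and 8.23% of all genes. ITGB7, an integrin chain, averaged 683.1 FPKM in WT. It rose to 1132 in KO1 (0.73, adjusted p = 4.11e-05) and to 916.3 in KO2 (0.41, adjusted p = 0.0039), and fell from 1057 in KO1EV to 688.1 in KO1R (−0.62, adjusted p = 0.000402). AMPD1, an AMP deaminase, fell in both clones (−0.61 and −0.88, adjusted p = 0.000487 and 2.56e-05). Of 5 other translocation targets and plasma cell factors tested in Delta47, 5 were lower in KO1 than in WT and 1 in KO2. In OPM2 2 of 5 were higher and 1 lower in KO1 (median 0.40), and in KO2 the adjusted p of all 5 lay between 0.17 and 0.478. The share called was 100% and 20% in the Delta47 clones, beside 52.6% and 43.6% of all genes. It was 60% and 0% in the OPM2 clones, beside 21.2% and 14.4%. IRF4, a factor that myeloma cells depend on, was lower than WT in both Delta47 clones (−0.40 and −0.41, adjusted p = 8.93e-08 and 6.87e-08).

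MYC, the growth factor-induced transcription factor, fell in both Delta47 clones. Its values there were 179.91, 187.04 and 185.16 in WT, 157.75, 162.28 and 157.37 in KO1, 167.82, 164.39 and 161.48 in KO2 and 159.28, 170.9 and 158.99 in KO2R. Every WT library was above every other library, and KO2 overlapped both KO1 and KO2R. KO1 was lower than WT by −0.21 ± 0.0346 (adjusted p = 0.000103), KO2 by −0.16 ± 0.0346 (adjusted p = 0.00133) and KO2R by −0.17 ± 0.0346 (adjusted p = 0.000295). KO2R and KO2 were not distinguished (−0.014 ± 0.0346, adjusted p = 0.746; 95% interval −0.0871 to 0.0594), though with quantile scaling the difference was −0.11 (adjusted p = 0.0142).

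In OPM2 the direction for KO1 was the other one. MYC was at 172.69, 186.25 and 188.48 FPKM in WT, 206.67, 241.39 and 245.13 in KO1, 191.94, 190.93 and 135.29 in KO2, 196.93, 193.73 and 150.41 in KO1EV and 188.7, 196.03 and 196.74 in KO1R. KO1 lay above every other group, and the lowest values of KO2 and KO1EV belong to the 2 libraries that stand apart. Against WT, KO1 was higher by 0.34 ± 0.132 with an adjusted p of 0.0852. Without those 2 libraries, which are not in this pair of groups but set its error, the same difference had an adjusted p of 9.18e-05, and with these groups alone 0.00134. KO2 was lower than KO1 (−0.43, adjusted p = 0.0251), a call lost without KO1 replicate 2 or 3 (0.0863 and 0.0888) and with the length trend removed (adjusted p = 0.0557) or these groups alone (adjusted p = 0.135). Without the 2 libraries that stand apart it was −0.27 (adjusted p = 0.00122).

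Of 35 MYC target genes tested in OPM2, 2 were higher and 1 lower in KO1 than in WT and 4 higher and 1 lower in KO2, with a median log2 fold change of 0.335 and 0.215 beside 0.075 and 0.021 for all genes. In Delta47 10 of 36 were higher and 10 lower in KO1, and 10 higher and 8 lower in KO2, with medians of 0.0015 and 0.038 beside 0.023 and 0.054. The MYC targets called were 8.57% and 14.3% in the OPM2 clones, beside 21.2% and 14.4% of all genes. They were 55.6% and 50% in the Delta47 clones, beside 52.6% and 43.6%. LDHA, the lactate dehydrogenase subunit, fell in every clone and rose with FOXM1c in each line. In Delta47 it went from 988.3 in WT to 653.7 in KO1 and 561.8 in KO2 and reached 1398 in KO2R (1.32 against KO2, adjusted p = 2e-12). GART, a purine synthesis enzyme, rose in OPM2 KO1 (0.60, adjusted p = 0.000146), and CCT3, a chaperonin subunit, fell in Delta47 KO1 and KO2 (−0.62 and −0.74, adjusted p = 1.7e-10 and 1.24e-11). Among 20 genes of the MYC network, PIM1, a kinase that stabilises MYC, fell in both OPM2 clones, from 5.357 FPKM to 2.477 and 2.177 (adjusted p = 3.8e-06 and 1.23e-06), and in Delta47 KO2 (−0.74, adjusted p = 7.69e-08), but it was not called in Delta47 KO1 (−0.048, adjusted p = 0.551). OPM2 KO1EV was already above KO1 in PIM1 by 1.09 (adjusted p = 1.76e-06). Of the 20 network genes, 6 were higher and 6 lower in Delta47 KO1 than in WT (28.9% and 23.7% of all genes). In KO2 4 were higher and 2 lower (28.4% and 15.2%). MYCN rose in Delta47 KO1 from 3.423 to 6.833 (0.83, adjusted p = 5.85e-07), where MYC fell. It was not called in KO2 (−0.043, adjusted p = 0.71).

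**Figure D3:**
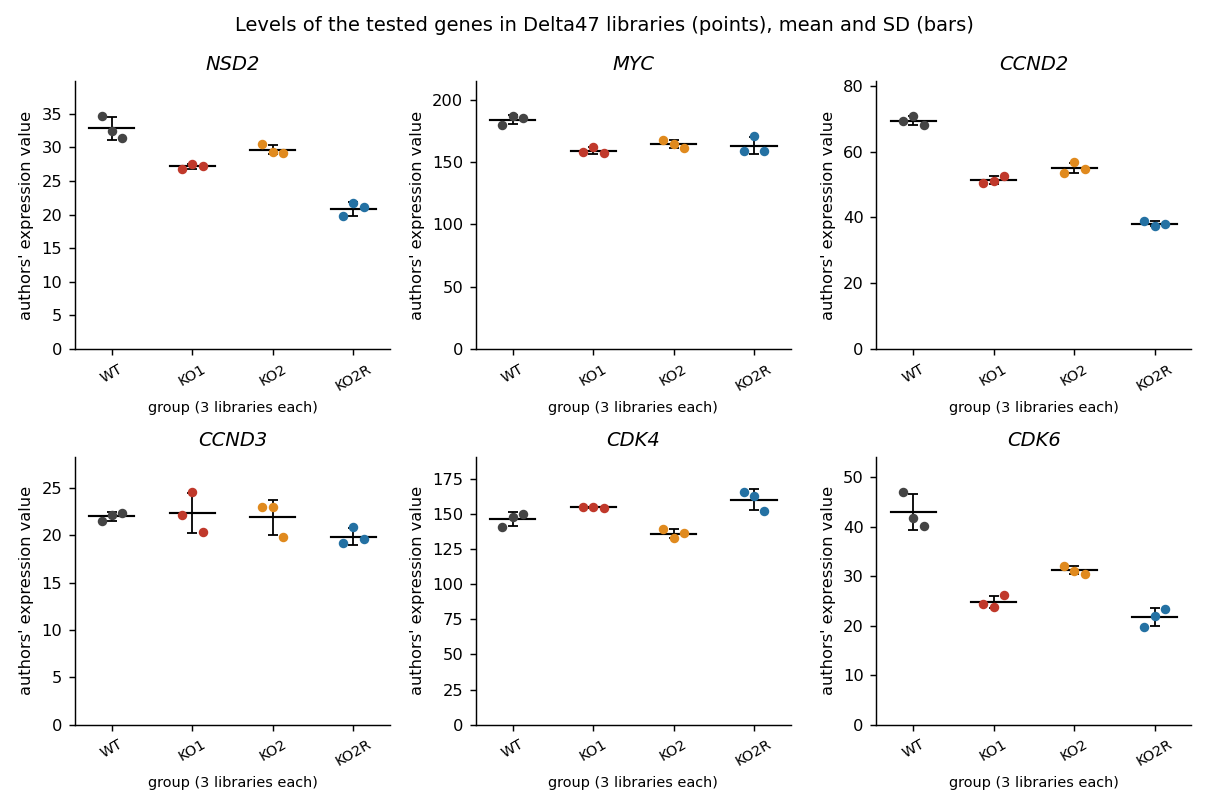
Authors' expression value (vertical axes, from 0) of the 6 tested genes in each Delta47 library by group (horizontal axes); points are libraries, bars the mean and SD. CDK6 drops from 40.07 to 47.06 in WT to 19.7 to 23.44 in KO2R, whereas CDK4 stays within 132.8 to 165.69 in all libraries.

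CCND1, the cyclin D1 gene, was at 0 to 0.04 FPKM in every OPM2 library and at 0 to 0.08 in every Delta47 library. CCND2, which encodes cyclin D2, supplied most D cyclin mRNA in each line. It fell in both Delta47 clones and fell further with FOXM1c. Its values were 69.29, 70.88 and 68.24 in WT, 50.38, 51.22 and 52.69 in KO1, 53.57, 56.82 and 54.84 in KO2 and 39.03, 37.33 and 38.15 in KO2R. No 2 groups overlapped, and the order was WT, KO2, KO1 and KO2R. Against WT, KO1 stood at −0.43 ± 0.036 (adjusted p = 6.93e-08), KO2 at −0.33 ± 0.036 (adjusted p = 1.55e-06) and KO2R at −0.85 ± 0.036 (adjusted p = 8.86e-12). A difference this large was found in 11.6%, 15.7% and 3.46% of genes. KO2R was lower than KO2 by −0.52 ± 0.036 (adjusted p = 6.9e-09), and by −0.31 (adjusted p = 1.39e-05) with the length trend removed. KO2 exceeded KO1 by 0.097 (adjusted p = 0.0404), which was lost without KO1 replicate 1 or 2 or KO2 replicate 2 or 3 (0.0764 to 0.166) and turned to −0.026 (adjusted p = 0.659) with the length trend removed.

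In OPM2 CCND2 was not called in any comparison. It was at 83.59, 81.51 and 83.63 FPKM in WT, 89.26, 94.71 and 84.86 in KO1, 94.5, 98.77 and 81.57 in KO2, 84.36, 85.6 and 77.25 in KO1EV and 84.89, 91 and 99.91 in KO1R. KO1 and KO1R lay above WT, and KO2 overlapped it. The differences from WT were 0.11 for KO1, 0.14 for KO2 and 0.14 for KO1R (adjusted p = 0.329, 0.3 and 0.279). Without the 2 libraries that stand apart KO2 was higher by 0.22 (adjusted p = 0.00779) and KO1R by 0.14 (adjusted p = 0.0366).

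CCND3, which encodes cyclin D3, rose in OPM2 KO1. It was at 14.5, 14.78 and 15.28 FPKM in WT, 17.33, 19.02 and 20.68 in KO1, 14.42, 13.04 and 14.46 in KO2, 17.19, 17.19 and 17.34 in KO1EV and 15.75, 18.03 and 16.41 in KO1R. All KO1 libraries exceeded those of WT, and all KO2 libraries were just under them. KO1 was higher than WT by 0.33 ± 0.0722 (adjusted p = 0.00621), a call kept without any 1 library (adjusted p up to 0.0353). KO2 was lower than KO1 by −0.42 ± 0.0722 (adjusted p = 0.000798) and not called against WT (−0.084, adjusted p = 0.492). KO1EV against KO1 (−0.13, adjusted p = 0.391) and KO1R against KO1EV (−0.043, adjusted p = 0.731) were not called. In Delta47 CCND3 lay between 19.2 and 24.62 in all libraries and passed in no comparison of the fit over all groups. KO2R was lower than WT by −0.14 (adjusted p = 0.0662), by −0.24 (adjusted p = 0.00407) with the length trend removed, and it passed with a replicate block (0.0382) and with these groups alone (0.0284). KO2R against KO2 gave −0.13 (adjusted p = 0.0877), which passed without KO2 replicate 3 (adjusted p = 0.0143) and with the length trend removed (0.0366), as KO2R against WT did without KO2R replicate 2 (adjusted p = 0.0478).

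The sum of the 3 D cyclin values in Delta47 fell from 91.51 ± 1.36 in WT (SD, n = 3) to 73.83 ± 1.79 in KO1, 77.02 ± 2.63 in KO2 and 58.1 ± 0.252 in KO2R. CCND2 made up 75.91 ± 0.545% of it in WT, and KO1 had 69.69 ± 2.29%, KO2 71.53 ± 1.77% and KO2R 65.7 ± 1.45%. WT lay above the other groups in each quantity, and KO2R below them. An exact permutation test of 3 against 3 libraries cannot go below p = 0.1, so no p is given for sums and ratios. In OPM2 the sum was 97.77 ± 1.34 in WT, 108.6 ± 4.45 in KO1 and 105.6 ± 8.4 in KO2, with CCND2 shares of 84.8 ± 0.356%, 82.47 ± 1.81% and 86.68 ± 1.7%.

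CDK6, the kinase partner of D cyclins that many blood cell types use, differed most from WT of all tested members in Delta47. Its values were 47.06, 41.7 and 40.07 in WT, 24.35, 23.73 and 26.22 in KO1, 32.06, 31.04 and 30.52 in KO2 and 19.7, 22.04 and 23.44 in KO2R. No 2 groups overlapped, and KO2R was lowest. KO1 was lower than WT by −0.77 ± 0.0637 (adjusted p = 5.68e-08), KO2 by −0.45 ± 0.0637 (adjusted p = 3.01e-05) and KO2R by −0.95 ± 0.0637 (adjusted p = 1.86e-09). Differences this large were found in 2.54%, 9.14% and 2.4% of genes. KO2 lay above KO1 by 0.32 ± 0.0637 (adjusted p = 0.00081), and KO2R below KO2 by −0.51 ± 0.0637 (adjusted p = 3.99e-06). These 5 calls were kept without any 1 library. With the length trend removed they stood at −0.58, −0.45, −0.67, 0.13 and −0.22 (adjusted p = 2.29e-08, 3.61e-07, 2.29e-09, 0.0254 and 0.000344).

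In OPM2 CDK6 spread widely within groups. It was at 26.7, 28.01 and 26.22 FPKM in WT, 32.27, 29.94 and 26.14 in KO1, 20.26, 22.39 and 27.67 in KO2, 24.51, 26.14 and 34.98 in KO1EV and 21.26, 22.42 and 25.37 in KO1R. The highest KO2 and KO1EV values came from the libraries that stand apart, and KO1R lay under WT. No comparison was called, with −0.21 (adjusted p = 0.352) in KO2 and −0.22 (adjusted p = 0.31) in KO1R against WT. Without the 2 libraries these were −0.33 (adjusted p = 0.00489) and −0.22 (adjusted p = 0.0218), and KO2 was lower than KO1 by −0.44 (adjusted p = 0.000202).

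CDK4, the other D cyclin kinase, moved little. In Delta47 it was at 140.52, 148.04 and 149.72 in WT, 155.1, 154.6 and 154.44 in KO1, 138.87, 132.8 and 136.17 in KO2 and 165.69, 162.81 and 151.74 in KO2R. KO1 and KO2R lay above WT and KO2 below it, without overlap. KO2 was lower than WT by −0.10 ± 0.0372 (adjusted p = 0.0347), a call lost without KO2 replicate 2 or 3 or WT replicate 2 or 3 (0.0707 to 0.126), and lower than KO1 by −0.19 (adjusted p = 0.00092). KO2R exceeded KO2 by 0.23 ± 0.0372 (adjusted p = 4.64e-05), by 0.15 (adjusted p = 0.00101) with the length trend removed and by 0.13 (adjusted p = 0.00227) with quantile scaling. Its excess over WT (0.13, adjusted p = 0.00526) turned to −0.0082 (adjusted p = 0.824) with quantile scaling and to −0.015 (adjusted p = 0.696) with the length trend removed. TSPAN31, whose exons overlap CDK4 on the opposite strand, averaged 3.043 in WT, with 4.093 for KO1, 3.52 for KO2 and 4.983 for KO2R. No source used here says that counting kept strands apart, so reads of overlapping exons cannot be told apart. The same limit holds for CCND2, whose exons overlap CCND2-AS1 on the opposite strand and AC008012.1 on the same strand. Exons of CCND1, CCND3 and CDK6 overlap LTO1, AL513008.1 and AC002454.1 on the opposite strand. In OPM2 CDK4 lay between 91.13 and 114.65 FPKM in all 15 libraries, with 103 ± 6.35 in KO1 and 102.8 ± 2.93 in WT (0.00054 ± 0.0741, adjusted p = 0.997), and it was not called. Without the 2 libraries that stand apart KO2 was lower than WT by −0.14 (adjusted p = 0.0469) and lower than KO1 by −0.14 (adjusted p = 0.0294), beside −0.061 and −0.062 with all libraries.

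The ratio of the kinases shifted in Delta47. Log2(CDK6/CDK4) was −1.77 ± 0.17 in WT (SD, n = 3), −2.64 ± 0.0766 in KO1, −2.12 ± 0.0313 in KO2 and −2.88 ± 0.189 in KO2R. WT libraries were above all others, and those of KO1 and KO2R overlapped. The longest transcript is 11612 bases for CDK6 and 2076 for CDK4, and fold changes in Delta47 moved with transcript length. In OPM2 the ratio was −1.93 ± 0.0802 in WT and lay between −2.39 and −1.59 in all libraries, and each knockout or vector group overlapped WT.

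**Figure D4:**
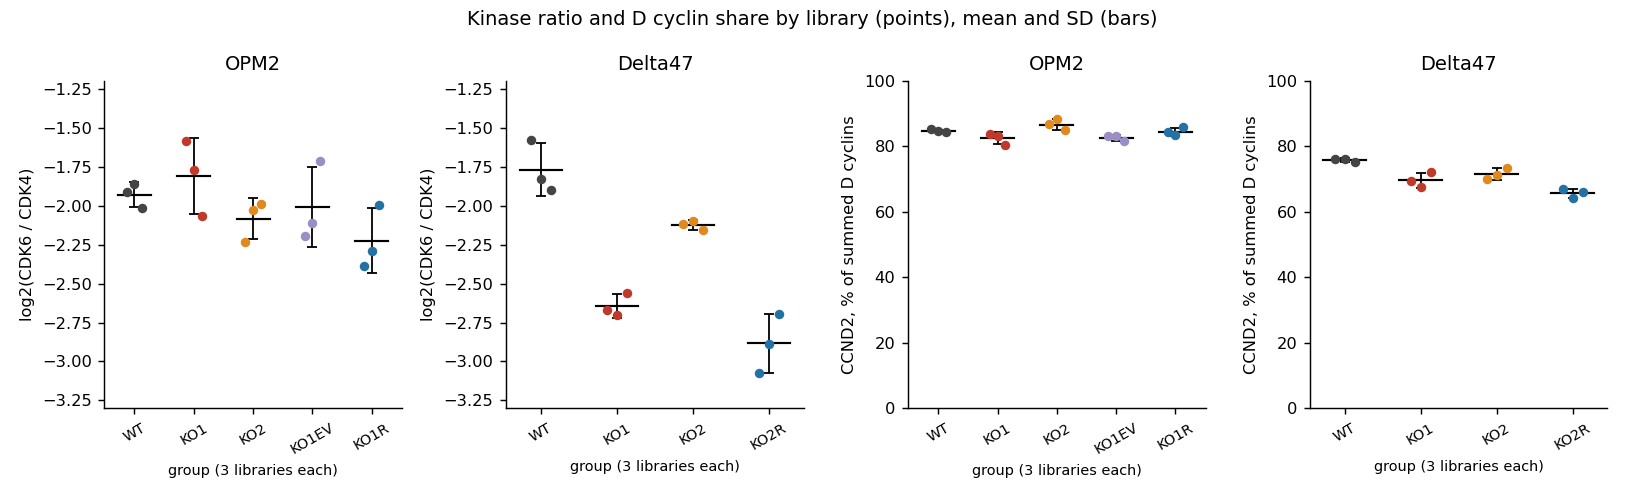
Log2 ratio of CDK6 to CDK4 (left pair of panels) and CCND2 as a percentage of the summed D cyclin values (right pair) by group in OPM2 and Delta47; points are libraries, bars the mean and SD. In Delta47 the ratio falls from −1.77 in WT to −2.64 in KO1 and −2.88 in KO2R, and the CCND2 share falls from 75.91% to 65.7%.

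Of 26 other tested genes of G1 cyclins, their kinases and the RB pathway, 2 were higher and 3 lower in each OPM2 clone than in WT. In Delta47 6 were higher and 9 lower in KO1, 3 higher and 12 lower in KO2, and 10 higher and 9 lower in KO2R than in KO2. The share called was 19.2% in each OPM2 clone, beside 21.2% and 14.4% of all genes in KO1 and KO2. For the 3 Delta47 comparisons it was 57.7%, 57.7% and 73.1%, beside 52.6%, 43.6% and 62%. Between the OPM2 clones, 7 of these genes were higher and 9 lower in KO2 than in KO1 (61.5%, beside 29.9% of all genes). CCNA2, the S phase cyclin A2, fell in all 4 clones, by −0.36 and −0.54 in OPM2 (adjusted p = 0.0125 and 0.00106) and by −0.46 and −0.52 in Delta47 (adjusted p = 4.06e-07 and 1.23e-07). It rose from KO2 to KO2R by 0.50 (adjusted p = 1.11e-07). CKS1B, a CDK subunit gene, averaged 374 in Delta47 WT, with 319.2 for KO1, 230.8 for KO2 and 355.6 for KO2R. Of the inhibitors of CDK4 and CDK6 and their relatives, CDKN2A rose in OPM2 KO1 (0.35, adjusted p = 0.00574). CDKN1A fell in Delta47 KO1 and KO2 (−0.36 and −1.31, adjusted p = 5.94e-05 and 1.41e-11) and was at 14.42 in KO2R beside 14.4 in KO2. CDKN2C went opposite ways in the Delta47 clones, up in KO2 (0.33, adjusted p = 1.97e-07) and down in KO1 (−0.11, adjusted p = 0.00588).

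Fold changes moved with transcript length in several comparisons of each line. In Delta47, across 10901 genes with a length, Spearman's rho of the log2 fold change with length was −0.371 in KO1 against WT, −0.0636 in KO2 against WT, 0.411 in KO2 against KO1, −0.475 in KO2R against KO2 and −0.421 in KO2R against WT. This is a correlation across genes, which are not replicates. In OPM2, over 10283 genes, it was −0.309 in KO1EV against KO1 and −0.255 in KO1R against WT, and between −0.131 and 0.0345 in the other comparisons. CDK6, NSD2 and CCND2 have the longest transcripts of the 6 members tested in Delta47 (11612, 8568 and 6480 bases), and CCND3, MYC and CDK4 the shortest (2394, 2366 and 2076). The 3 long ones had the lowest fold changes in KO1 and KO2R against WT, but in KO2 MYC fell more than NSD2 (−0.16 and −0.14). With a smooth length trend taken out of each library, CDK6, CCND2, NSD2 and MYC were still called lower than WT in KO1, KO2 and KO2R. CCND2 then stood at −0.34, −0.36 and −0.67 (adjusted p = 7.39e-06, 3.61e-06 and 2e-09) and MYC at −0.30, −0.23 and −0.28 (adjusted p = 2.89e-06, 5.69e-05 and 3.05e-06).

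**Figure D5:**
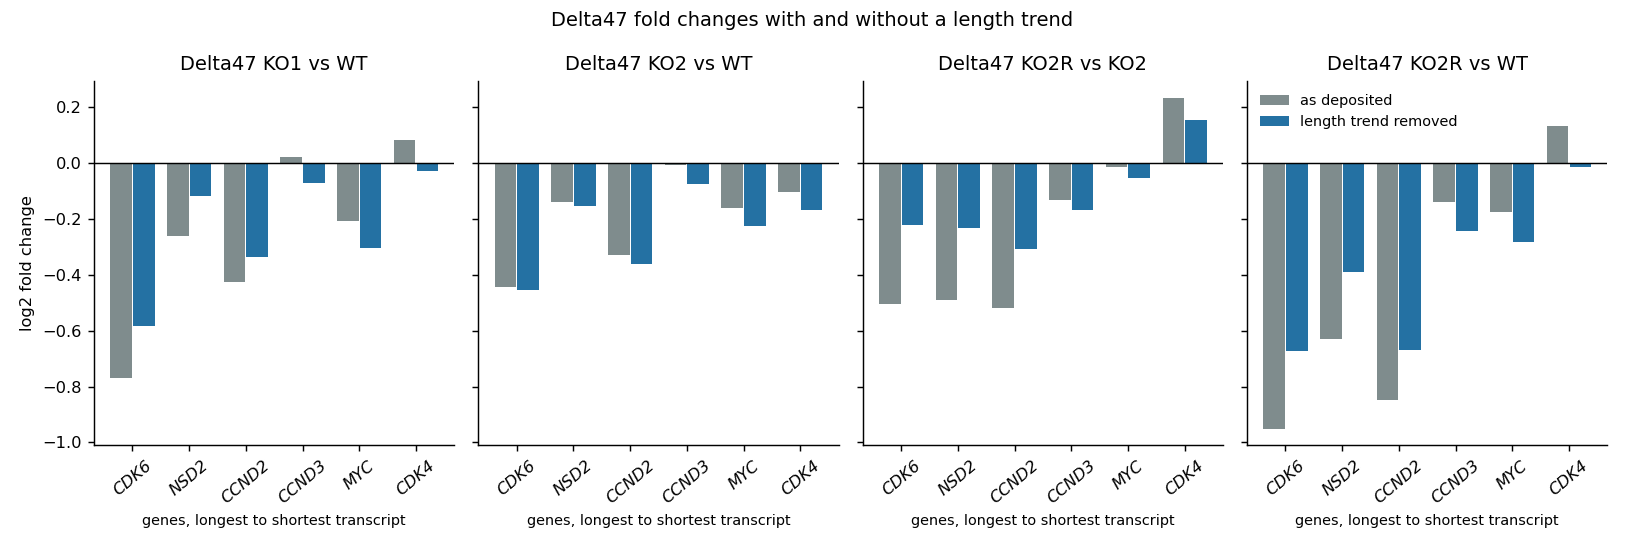
Log2 fold change (vertical axis) of the 6 genes tested in Delta47, ordered from the longest transcript to the shortest (horizontal axes), in 4 comparisons; grey bars use the deposited values and blue bars the values with a length trend removed. The drop of CDK6 from KO2 to KO2R shrinks from −0.51 to −0.22, and CDK4 in KO2R against WT goes from 0.13 to −0.015.

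The genes whose pattern was most like that of a member were named by Pearson's r over the libraries of a line, among genes whose group means spanned at least 0.5 (log2), as a description. For FGFR3 over 15 OPM2 libraries they were LGMN (0.95), LGALS1 (0.945) and RAC2 (0.94). Over 12 Delta47 libraries they were PIK3R1 (0.993), TLN1 (0.99) and MORC2 (0.99) for NSD2, CHAF1A (0.989), MED22 (0.988) and TOP1MT (0.988) for CCND2, and PRKDC (0.995) and HOOK3 (0.992) for CDK6. These libraries share their groups, so such values follow mostly from the differences between group means. The levels correlated here still held the trend with transcript length, and its part in these values of r was not tested.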

How the data were processed

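Poly-A RNA was sequenced as paired reads, per the labels' protocols. The authors deposited FPKM per gene for OPM2, per the file headers, and a table of expression values with no named unit for Delta47, treated here as signal. The genome build in the submitters' processing notes is hg19. Aligner and counter: not given in the sources used here. Of 30 libraries 27 were used: 3 Delta47 value columns could not be matched to a sample, and the columns with R but no clone number were read as KO2R. Each line was fitted in 1 limma-trend model (limma 3.58.1, R 4.3.3) on log2(value + 1), keeping genes that reached 1 in 3 libraries or more, with Benjamini-Hochberg adjustment over all genes tested and calls below 0.05. The script was tested on simulated data. In all, 11 comparisons were made. Transcript lengths were the longest per gene in GENCODE 29, and the trend was removed by lowess (span 0.3) per library, an alternative chosen after seeing the data. Other alternatives were pseudocount 0.1, no filter, quantile scaling, a robust prior, a replicate block, the compared groups alone and libraries left out. Named genes were the 9 members, FOXM1, up to 2 genes per list and comparison by smallest adjusted p, overlapping or neighbouring genes, and the 3 most alike in pattern; some genes under this rule are not reported here. Members and lists were chosen with earlier results of these data known. The replicate numbers passed the pairing check only for OPM2 KO1 against WT (correlations of deviations 0.412, 0.152 and 0.209).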

Additional observations from a re-analysis of the deposited data

Results flagged for a closer look

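FGFR3 in OPM2 differed between the knockout clones by 0.6662 (log2, KO2 minus KO1; limma adjusted p = 0.000114), with KO1 under WT and KO2 over it in every library. In 6 other cases every library of one line lay above its own WT and every library of the other line below it; these differences between lines were not tested, since the tables were made separately. For KO1 against WT the OPM2 change minus the Delta47 change was 0.362 for NSD2, 0.536 for CCND2 and 0.544 for MYC. For the FOXM1c vector cells against WT it was 0.992 for CCND2, 0.299 for CCND3 and 0.262 for MYC. OPM2 was the line with the higher values relative to WT in each of these 6 cases.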

How the results depend on the processing

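Without the 2 OPM2 libraries that stand apart, the members called numbered 5 in KO1 against WT (3 as reported), 5 in KO2 against WT (1), 3 in KO1EV against KO1 (1), 1 in KO1R against KO1EV (0) and 4 in KO1R against WT (1). With only the groups compared they numbered 0 in KO2 against WT, 2 in KO2 against KO1 (5), 1 in KO1R against KO1EV and 4 in KO1R against WT. With no filter on low values they were 0 in KO2 against WT and 0 in KO1EV against KO1, and with quantile scaling 0 in KO1EV against KO1 and 2 in KO1R against WT. With the length trend removed they were 3 in KO2 against KO1, 0 in KO1R against WT and, in Delta47, 2 in KO2 against KO1 (4). The replicate block gave 0 in KO1EV against KO1 and 2 in Delta47 KO2 against KO1; these pairs share only a number. Leaving out 1 library gave 1 to 3 in OPM2 KO1 against WT, 0 to 3 in KO2 against WT, 3 to 7 in KO2 against KO1, 0 to 1 in KO1EV against KO1 and in KO1R against WT, and in Delta47 3 to 5 in KO2 against WT (5) and 2 to 3 in KO2 against KO1.

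With the length trend removed, KO2 minus KO1 in Delta47 was −0.02579 for CCND2 and −0.03633 for NSD2, and CDK4 in KO2R against WT was −0.01528, or −0.008242 with quantile scaling; the cause was not tested. Over all genes, OPM2 KO1 against WT called 2187, 6052 without the 2 libraries and 5580 with only the groups compared. These 3 counts were 1480, 4227 and 361 for KO2 against WT, 3086, 6951 and 1180 for KO2 against KO1, 848, 2717 and 1385 for KO1R against KO1EV, and 1513, 4583 and 4111 for KO1R against WT. KO1EV against KO1 called 510, and 3295 without the 2 libraries. Leaving out 1 library gave 1176 to 1476 in KO1 against WT, 933 (without WT replicate 2) to 3112 (without KO2 replicate 3) in KO2 against WT, 2139 to 6254 (without KO2 replicate 3) in KO2 against KO1, 223 to 597 in KO1EV against KO1, 416 to 567 in KO1R against KO1EV and 853 to 1185 in KO1R against WT. For Delta47 the same step gave 4093 to 4269 in KO2 against WT (4791 as reported) and 3750 to 4041 in KO2 against KO1 (4636). The shares of all genes called move with these counts. No filter, which tests more genes, gave 1580 in OPM2 KO2 against WT and 735 in KO1EV against KO1. Quantile scaling gave 531 in KO1EV against KO1 and 1583 in KO1R against WT. Removing the length trend gave 3107 in OPM2 KO2 against KO1, 1475 in KO1R against WT and 3964 in Delta47 KO2 against KO1. The block gave 553 in KO1EV against KO1 and 4509 in Delta47 KO2 against KO1. It gave 2627 genes in OPM2 KO1 against WT and kept the 3 members called there. The length correction planned for a length column in the tables was not run, and the GENCODE version took its place. The unknown depth limits what can be said of CCND1 in both lines and FGFR3 in Delta47.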
